A study of Mus musculus with 13 samples.

Results

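The genes described here are 36 interferon-stimulated genes, transcripts that rise when a cell senses interferon, in the right ventricle of mice. They were chosen by name from the pathway, among 26264 genes in each expression table, and all 36 were listed and had enough reads to be tested. Polyadenylated RNA from 7 libraries of Dsg2 F536C knock-in mice was compared with that from 6 libraries of wild-type mice. Dsg2 encodes desmoglein 2, a cadherin that joins cardiomyocytes at desmosomes, and the series asks about PPAR-gamma signalling in arrhythmogenic cardiomyopathy modelled in these mice. The labels give no treatment, zygosity, strain, sex or age for either group. Nor do they state that the libraries are from different animals, and p-values therefore measure the spread between samples, which may be technical.

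Type I and type III interferons bind receptors whose Janus kinases phosphorylate STAT proteins. A complex that holds STAT2 and IRF9 then binds interferon-stimulated response elements in promoters. Interferon gamma acts through another receptor and leads to binding at gamma-activated sequences. The induced proteins detect or destroy viral RNA, block entry or release of virus at membranes, attach ISG15 to other proteins, or attack vacuoles that hold pathogens. Macrophages and endothelial cells of the heart express many of these genes at rest, and cytosolic nucleic acid can induce them without infection.

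Library totals ran from 14498336 to 29848597 estimated reads. Dsg2 averaged 47.7 ± 10.3 CPM (reads scaled to a common library size; SD, n = 7) in knock-in and 100.9 ± 11.2 CPM (SD, n = 6) in wild type, and every knock-in library was below every wild-type library. Knock-in 4, 5 and 6 stood apart. Fractional read numbers made up 10.2% to 10.7% of their values and 3.07% to 3.79% of those in the other 10 libraries. Their 5 epithelial markers summed to 1664 to 3017 CPM, against 11.8 to 26.7 CPM in knock-in 1, 2, 3 and 7 and 7.78 to 28.1 CPM in wild type. Most results are therefore given with all 13 libraries and with the 10 that remain without these 3, and some fold changes for 1 set only. The cardiomyocyte markers were abundant in every library, at 22120.3 to 43817 CPM in knock-in and 51906 to 77544 CPM in wild type for the sum of 8. Every library thus held heart muscle RNA, and the part of the heart was not tested.

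Promoter windows of 250 bases before to 50 bases after the transcription start were at hand for 27 of the 36 genes, from RefSeq with coordinates of build GRCm38.p6. The core of the interferon-stimulated response element was searched on both strands as GAAA, any 2 bases and GAAA. It was found for 17 of these 27 genes (63.0%), against 3.99% of 27025 genes. A gene with several windows counted if any of them held the core. The gamma-activated sequence, searched on both strands as TTC, any 3 bases and GAA, was in 9 of the 27 (33.3%), against 9.55% of all genes. The sequences below show the response element cores of 10 genes of different roles, in capitals and in the direction of transcription. The first 4 are from genes that bind or act on RNA, the next 3 are from Isg15, Bst2 and Stat2, and the last 3 are from GTPase genes. They lie on the minus strand at chr5:120777710-120777749 for Oas3 and chr5:120907515-120907560 for Oas1a, and on the plus strand at chr19:34640770-34640828 for Ifit1 and chr19:34583358-34583431 for Ifit3. Isg15 lies at chr4:156200860-156200911 and Bst2 at chr8:71537572-71537617, both on the minus strand, and Stat2 at chr10:128270261-128270300 on the plus strand. Igtp lies at chr11:58199507-58199546 on the plus strand, Irgm1 at chr11:48871420-48871465 on the minus strand and Gbp7 at chr3:142530268-142530307 on the plus strand.
Oas3: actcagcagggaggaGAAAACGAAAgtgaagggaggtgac
Oas1a: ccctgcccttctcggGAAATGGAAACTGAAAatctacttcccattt
Ifit1: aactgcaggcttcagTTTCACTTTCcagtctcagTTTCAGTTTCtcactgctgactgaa
Ifit3: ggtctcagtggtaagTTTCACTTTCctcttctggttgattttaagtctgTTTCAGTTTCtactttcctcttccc
Isg15: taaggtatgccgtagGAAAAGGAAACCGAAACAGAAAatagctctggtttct
Bst2: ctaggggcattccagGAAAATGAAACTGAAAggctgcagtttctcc
Stat2: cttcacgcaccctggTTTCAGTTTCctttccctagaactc
Igtp: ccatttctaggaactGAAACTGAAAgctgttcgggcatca
Irgm1: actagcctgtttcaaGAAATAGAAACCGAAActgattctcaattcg
Gbp7: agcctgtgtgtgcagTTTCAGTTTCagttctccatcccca
Where the cores run together, as in Oas1a, Isg15, Bst2 and Irgm1, one core overlaps the next. A match describes these letters and not a bound site.

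Most of the interferon-stimulated genes were higher in knock-in than in wild type in the 10 libraries, whereas few passed the test in all 13. With 13 libraries and TMM scaling, 5 of 36 rose in knock-in (Oas3, Mx1, Zbp1, Oas1a and Dhx58; 13.9%), against 23.6% of all 14588 genes tested. Iigp1 alone fell (2.78%), against 21% of all genes, and 30 were not called. With the 10 libraries, 23 rose (63.9%), against 22.3% of all 14518 genes tested, Iigp1 again fell, against 21.3% of all genes, and 12 were not called. The 5 genes that rose with 13 libraries all rose with 10. They include Oas3, which passed the filter on low values only through the knock-in libraries. Calls have a Benjamini-Hochberg adjusted p under 0.05 over all tested genes in the edgeR quasi-likelihood test, and log2 fold changes are knock-in over wild type. In bulk tissue, fewer cells of a type and less RNA per cell cannot be told apart.

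The scaling of the libraries moved the level of all genes and so the number of calls. Scaling by library totals in place of TMM shifted the median of all log2 fold changes upward by 0.25 in either set. With totals, 20 of the 36 rose and 1 fell in 13 libraries, against 41.9% and 11.4% of all genes, and 31 rose and 1 fell in 10 libraries, against 41.7% and 10.5% of all genes. The median log2 fold change of the 36 genes was 0.26 with 13 libraries and 0.47 with 10 under TMM, beside 0.08 and 0.02 for all genes. Under library totals it was 0.51 with 13 libraries and 0.72 with 10, beside 0.33 and 0.26 for all genes. The distance between these genes and all genes was thus 0.18 with 13 libraries and 0.46 with 10, under either scaling. Fold changes were positive for 28 of 36 genes with 13 libraries and for 35 with 10 under TMM.

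**Figure D1:**
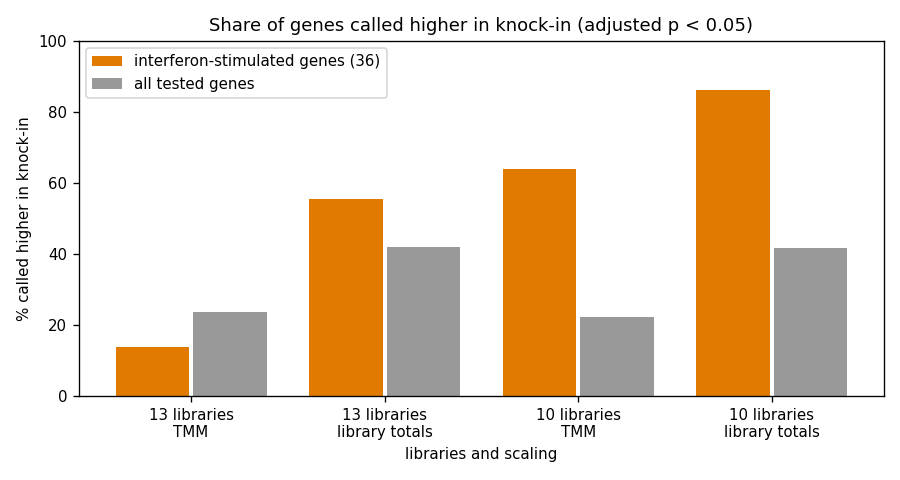
Share of genes called higher in knock-in, in percent, for the 36 interferon-stimulated genes beside all tested genes, with 13 and with 10 libraries and under TMM and library totals. With 10 libraries 63.9% of the 36 genes were called higher under TMM against 22.3% of all genes, and with 13 libraries 13.9% against 23.6%.

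**Figure D2:**
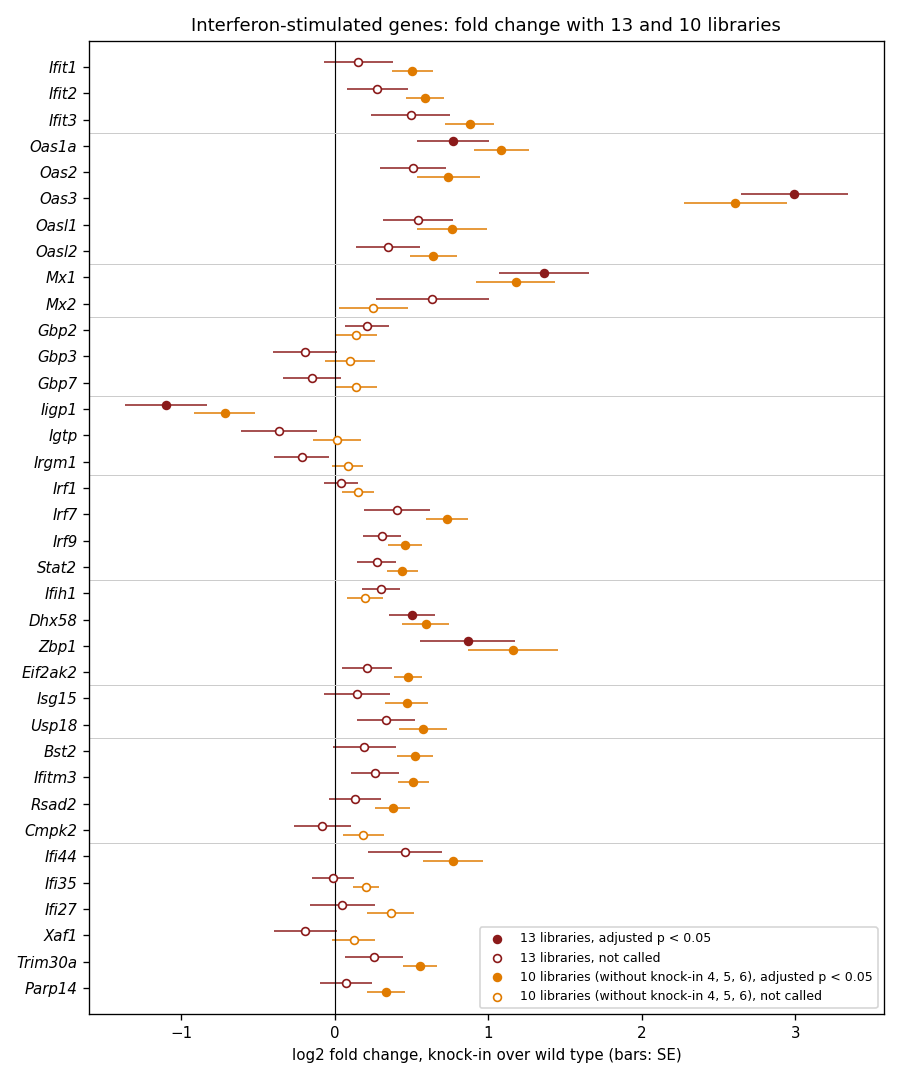
Log2 fold change of each interferon-stimulated gene, knock-in over wild type, with its SE as bars, in 13 and in 10 libraries under TMM, with filled points for genes past the threshold and open points for the others. Oas3 had the highest value in both sets, Iigp1 the lowest in both, and most genes lay further to the right with the 10 libraries.

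Of the ligands that start the pathway, 18 of 20 listed interferon genes had 0 reads in all 13 libraries, where 3 reads would equal 0.207 CPM in the smallest library and 0.101 CPM in the largest. Ifng, which encodes interferon gamma, had 7 reads over 3 knock-in libraries and 2 reads in 1 wild-type library. Ifnz, a type I interferon gene, had 5.58 estimated reads over 3 knock-in libraries and 6.11 over 3 wild-type libraries. No difference in a ligand was detectable at this depth.

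Receptor genes moved in both directions. Ifngr1, the ligand-binding chain of the interferon gamma receptor, had 108.2 to 156.7 CPM in knock-in 1, 2, 3 and 7 and 74.6 to 85.9 CPM in wild type, and rose with 10 libraries (log2 fold change 0.64, edgeR adjusted p = 0.000287) but was not called with 13 (0.34, adjusted p = 0.128). Ifngr2, its second chain, had 129.7 to 204.99 CPM in knock-in and 240.6 to 315.5 CPM in wild type, and fell with 13 and with 10 libraries (log2 fold change -0.71 and -0.53, edgeR adjusted p = 0.000572 and 0.000762). The type I receptor chain Ifnar1 was called only with 10 libraries (0.31, edgeR adjusted p = 0.0111), against 0.06 and adjusted p = 0.754 with 13. The other chain, Ifnar2, passed in neither set (-0.14, adjusted p = 0.474 with 13 and 0.13, adjusted p = 0.192 with 10, edgeR). Il10rb, a chain of the type III interferon receptor that interleukin receptors share, fell in both sets (-0.62, adjusted p = 0.00118 and -0.45, adjusted p = 0.00169, edgeR), though not with library totals over 10 libraries (-0.20, adjusted p = 0.102).

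Over the 16 genes of the receptor and JAK-STAT list, 13 libraries gave 6 higher and 3 lower calls, and 10 libraries gave 5 higher and 4 lower, against shares of all tested genes of 23.6% higher and 21% lower with 13 libraries and 22.3% higher and 21.3% lower with 10. Ptpn6, a phosphatase that damps JAK signalling, rose in both sets (1.78 and 1.03, edgeR adjusted p = 0.000555 and 7.13e-05). It had 13.4 to 20.3 CPM in knock-in 1, 2, 3 and 7 and 34.6, 42.3 and 43.4 CPM in knock-in 4, 5 and 6. Wild type had 7.04 to 9.41 CPM.

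The 4 transcription factors among the 36 genes were moderately expressed. Under TMM none was called with 13 libraries and 3 rose with 10, against 23.6% and 22.3% of all tested genes called higher. With library totals 3 rose with 13 libraries (Irf7, Irf9 and Stat2) and all 4 with 10, against 41.9% and 41.7% of all genes. Irf7, the factor that amplifies type I interferon production, had 27.3, 22.1, 20.8 and 22.7 CPM in knock-in 1, 2, 3 and 7 and 13.9, 12.1 and 11.1 CPM in knock-in 4, 5 and 6, against a lowest, median and highest wild-type value of 11.2, 13.6 and 18.4 CPM. Knock-in 1, 2, 3 and 7 were thus all above wild type, while knock-in 4, 5 and 6 lay in or below the wild-type range. Irf7 rose with 10 libraries (log2 fold change 0.73 ± 0.14 SE, edgeR adjusted p = 0.000826), against 0.41 ± 0.21 and adjusted p = 0.133 with 13.

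Stat2 had 37.9, 32.1, 35.6 and 35.5 CPM in knock-in 1, 2, 3 and 7, and 27.7, 23.6 and 27.3 CPM in knock-in 4, 5 and 6. Its wild-type values ran from 21.9 to 31.2 CPM with a median of 25.4 CPM, so the 4 knock-in libraries did not overlap wild type and the other 3 did. It rose with 10 libraries (0.44 ± 0.10 SE, edgeR adjusted p = 0.0032) and was not called with 13 (0.27 ± 0.13, adjusted p = 0.0948). Irf9, the DNA-binding partner of STAT2, had 37.7, 30.8, 35.1 and 34.4 CPM in knock-in 1, 2, 3 and 7 and 25.5, 26.6 and 27.8 CPM in knock-in 4, 5 and 6, against 21.2 to 32.4 CPM in wild type with a median of 24.1 CPM. Knock-in 2 lay inside the wild-type range, and Irf9 rose with 10 libraries (0.46 ± 0.11 SE, edgeR adjusted p = 0.0046) but not with 13 (0.31 ± 0.13, adjusted p = 0.0591). Irf9 shares exon sequence on the same strand with its neighbour Rnf31 in an older annotation, so its reads are uncertain.

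Irf1, a factor that responds strongly to interferon gamma, was the fourth. It had 43.2, 37.2, 41.3 and 40.8 CPM in knock-in 1, 2, 3 and 7 and 36.1, 31.7 and 33.7 CPM in knock-in 4, 5 and 6, against 28.8, 37.1 and 41.7 CPM as the lowest, median and highest in wild type. The groups overlapped, and Irf1 passed in neither set under TMM (0.04 ± 0.11 SE, adjusted p = 0.781 with 13 libraries and 0.15 ± 0.10, adjusted p = 0.265 with 10, edgeR). With library totals over 10 libraries it was called higher (0.39, edgeR adjusted p = 0.0176).

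**Figure D3:**
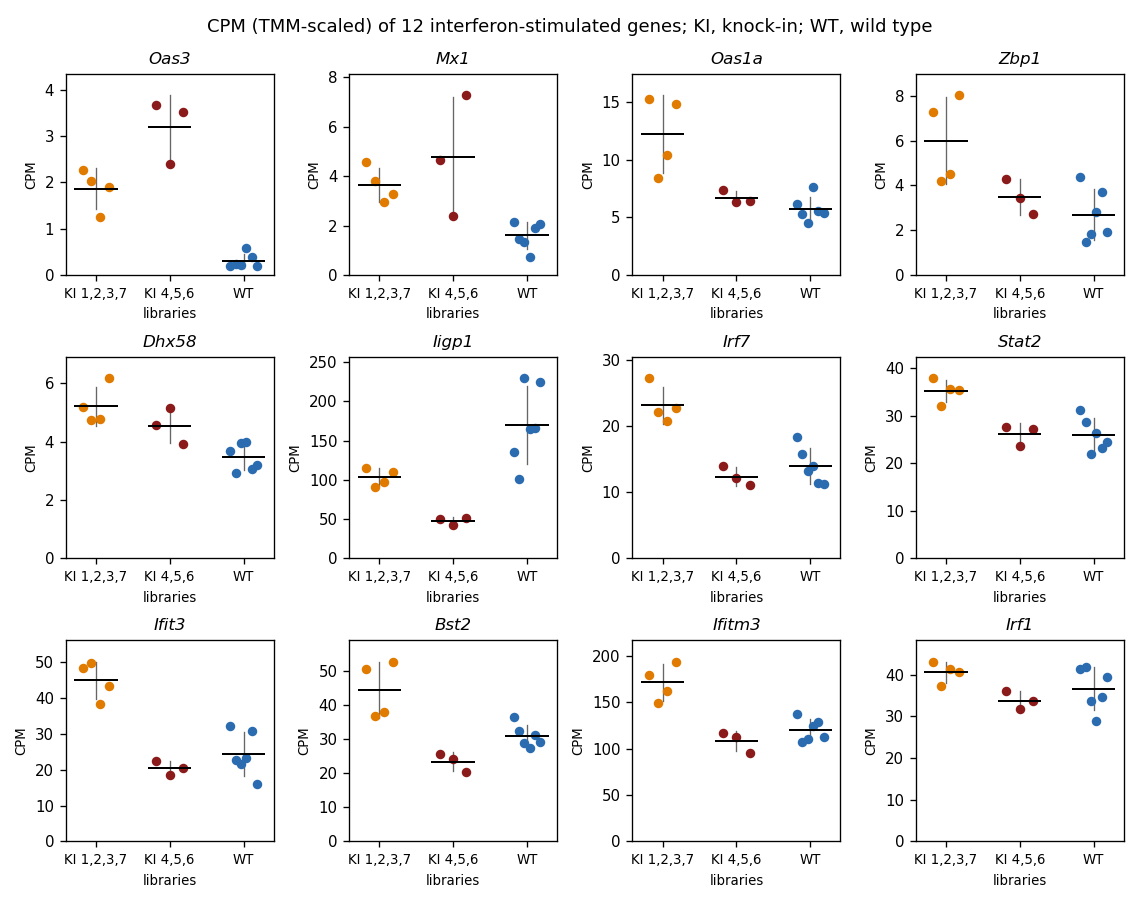
CPM of 12 interferon-stimulated genes in each library, with knock-in 1, 2, 3 and 7 on the left, knock-in 4, 5 and 6 in the middle and wild type on the right of each panel. Points are libraries, the line is the mean and the bar the SD. Oas3 and Mx1 were above wild type in all 7 knock-in libraries, Irf7, Stat2, Ifit3, Bst2 and Ifitm3 were above every wild-type library in knock-in 1, 2, 3 and 7 but not in knock-in 4, 5 and 6, and Iigp1 was lowest in knock-in 4, 5 and 6.

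The oligoadenylate synthetases (OAS) and their relatives rose in all 5 listed genes with 10 libraries and in 2 with 13. Of all tested genes, 22.3% rose with 10 libraries and 23.6% with 13. These proteins sense double-stranded RNA, and the active enzymes make oligoadenylates that switch on RNase L. Oas3 had 2.28, 2.04, 1.25 and 1.89 CPM in knock-in 1, 2, 3 and 7 and 3.66, 2.40 and 3.52 CPM in knock-in 4, 5 and 6, against 0.192, 0.223 and 0.585 CPM as the lowest, median and highest in wild type. The groups did not overlap, on 19 to 112 reads per knock-in library and 3 to 11 reads per wild-type library. Its log2 fold change was 2.99 ± 0.35 (SE) with 13 libraries and 2.61 ± 0.33 with 10 (edgeR adjusted p = 3.27e-05 and 5.68e-05). Oas3 passed the filter on low values only through the knock-in libraries, where its reads are high, while wild type alone would have carried the other 35 genes, so Oas3 had to differ to be tested. With wild-type reads this close to 0, the size of its fold change is imprecise. Oas3 was the only one of the 36 genes with knock-in 4, 5 and 6 all above the other 4 knock-in libraries.

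Oas1a, an active synthetase, had 15.2, 8.36, 10.4 and 14.8 CPM in knock-in 1, 2, 3 and 7 and 7.39, 6.34 and 6.40 CPM in knock-in 4, 5 and 6, against 4.55, 5.45 and 7.61 CPM as the lowest, median and highest in wild type. Only the first 4 were clear of wild type, and Oas1a rose with 13 and with 10 libraries (0.77 ± 0.23 and 1.08 ± 0.18 SE, edgeR adjusted p = 0.016 and 0.000364). Its read numbers were not whole in 12 of 13 libraries, so reads may be shared with other genes and its level is uncertain.

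Oas2, another active synthetase, had 20.3, 12.05, 24.1 and 19.6 CPM in knock-in 1, 2, 3 and 7 and 12.4, 12.8 and 11.8 CPM in knock-in 4, 5 and 6, against 7.04, 12.2 and 14.2 CPM as the lowest, median and highest in wild type. Knock-in 2 lay with the wild-type libraries. Oas2 rose with 10 libraries (0.74 ± 0.21 SE, edgeR adjusted p = 0.0108) and was not called with 13 (0.51 ± 0.22, adjusted p = 0.0684). Oasl1, which in mice restrains translation of Irf7, had 2.96, 2.15, 3.74 and 2.95 CPM in knock-in 1, 2, 3 and 7 and 1.95, 1.79 and 2.14 CPM in knock-in 4, 5 and 6. Its wild-type values were 1.33, 1.68 and 2.54 CPM as the lowest, median and highest, so the groups overlapped. Oasl1 rose with 10 libraries (0.76 ± 0.23 SE, edgeR adjusted p = 0.0146), and no longer did so when knock-in 3 was left out (edgeR adjusted p = 0.053). With 13 libraries it was not called (0.54 ± 0.23, adjusted p = 0.0644). Oasl2 had 22.6 to 31.1 CPM in knock-in 1, 2, 3 and 7 and 13.1 to 22.5 CPM in wild type, and rose with 10 libraries (0.64, edgeR adjusted p = 0.00421).

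Of the Mx GTPases, which assemble around viral ribonucleoproteins, Mx1 rose and Mx2 did not pass. Mx1 had 4.55, 3.80, 2.95 and 3.26 CPM in knock-in 1, 2, 3 and 7 and 4.64, 2.40 and 7.27 CPM in knock-in 4, 5 and 6, against 0.745, 1.67 and 2.16 CPM as the lowest, median and highest in wild type. No knock-in library overlapped wild type. The log2 fold change of Mx1 was 1.36 ± 0.29 (SE) with 13 libraries and 1.18 ± 0.26 with 10 (edgeR adjusted p = 0.00235 and 0.00228). Mx2 had 2.55 to 12.3 CPM in knock-in, the highest in knock-in 6, and 2.12 to 4.46 CPM in wild type. Its log2 fold change was 0.64 with 13 libraries and 0.25 with 10 (edgeR adjusted p = 0.166 and 0.382). The read numbers of Mx1 and Mx2 were not whole in knock-in 4 and 6, so their values in these libraries are uncertain. Oas3 and Mx1 were the only 2 of the 36 genes with all 7 knock-in libraries above all wild-type libraries, and none had all 7 below. Of these 2, Oas3 passed the filter on low values only through knock-in. Of all tested genes, 8.61% lay wholly above and 10.5% wholly below. With 10 libraries 14 of the 36 genes (38.9%) lay wholly above and none below, against 14.8% and 15.1% of all tested genes. Some gaps were small, as for Oasl2, with a lowest knock-in value of 22.56 CPM and a highest wild-type value of 22.50 CPM.

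Of the IFIT proteins, IFIT1 binds RNA that lacks the cap modification of the host. All 3 listed IFIT genes rose with 10 libraries and none with 13, against 22.3% and 23.6% of all tested genes. Ifit3 had 48.3, 49.6, 38.1 and 43.3 CPM in knock-in 1, 2, 3 and 7 and 22.4, 18.5 and 20.3 CPM in knock-in 4, 5 and 6, against 16.1, 22.9 and 32.2 CPM as the lowest, median and highest in wild type. The first 4 were all above wild type, and the other 3 were inside its range. Its log2 fold change was 0.88 ± 0.16 (SE) with 10 libraries and 0.49 ± 0.26 with 13 (edgeR adjusted p = 0.000719 and 0.132). Ifit1 had 18.8 to 23.9 CPM in knock-in 1, 2, 3 and 7 and 12.4 to 18.6 CPM in wild type, whereas knock-in 4, 5 and 6 had 9.69 to 11.9 CPM. Its log2 fold change with 10 libraries was 0.51 (edgeR adjusted p = 0.00677). Ifit2 had 33.1 to 45.1 CPM in knock-in 1, 2, 3 and 7 and 21.5 to 33.4 CPM in wild type, with a log2 fold change of 0.58 with 10 libraries (edgeR adjusted p = 0.00193). Ifit1 and Ifit3 had read numbers that were not whole in all 13 libraries, so reads may be shared with other genes and both levels are uncertain.

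Of the 4 sensors of foreign or misplaced nucleic acid, 2 rose with 13 libraries and 3 with 10, against 23.6% and 22.3% of all tested genes. Zbp1, a sensor of Z-form nucleic acid that can start necroptosis, had 7.27, 4.18, 4.52 and 8.03 CPM in knock-in 1, 2, 3 and 7 and 4.30, 3.43 and 2.73 CPM in knock-in 4, 5 and 6, against 1.49, 2.37 and 4.37 CPM as the lowest, median and highest in wild type. Of knock-in 1, 2, 3 and 7, knock-in 2 alone was below the highest wild-type library, while knock-in 4, 5 and 6 all were. Zbp1 rose with 13 and with 10 libraries (0.87 ± 0.31 and 1.16 ± 0.29 SE, edgeR adjusted p = 0.0348 and 0.00602). The call with 13 libraries was lost without wild type 2, 3 or 6 or knock-in 1 or 7 (adjusted p = 0.0592, 0.0648, 0.0641, 0.0657 and 0.0706 in that order), and the call with 10 libraries held without any one library.

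Dhx58, which encodes LGP2, an RNA helicase that tunes the cytosolic RNA sensors, had 5.18, 4.73, 4.78 and 6.17 CPM in knock-in 1, 2, 3 and 7 and 4.58, 5.14 and 3.93 CPM in knock-in 4, 5 and 6. Its wild-type values were 2.94, 3.46 and 3.99 CPM as the lowest, median and highest, and only knock-in 6 reached into that range. Dhx58 rose in both sets (0.50 ± 0.15 and 0.59 ± 0.15 SE, edgeR adjusted p = 0.014 and 0.00673). Ifih1, which encodes the sensor of long double-stranded RNA MDA5, had 26.2, 21.0, 22.4 and 26.2 CPM in knock-in 1, 2, 3 and 7 and 28.7, 23.99 and 31.5 CPM in knock-in 4, 5 and 6, against 18.1, 20.0 and 26.5 CPM as the lowest, median and highest in wild type. The groups overlapped, and Ifih1 passed in neither set under TMM (0.30 ± 0.12 SE, adjusted p = 0.0587 with 13 libraries and 0.20 ± 0.12, adjusted p = 0.188 with 10, edgeR). With library totals it was called higher in both (0.54 and 0.44, edgeR adjusted p = 0.00753 and 0.0232). Eif2ak2, which encodes the kinase PKR that halts translation on double-stranded RNA, had 28.2 to 36.05 CPM in knock-in 1, 2, 3 and 7 and 20.6 to 26.0 CPM in wild type. It rose with 10 libraries (0.47, edgeR adjusted p = 0.00095) and not with 13 (0.21, adjusted p = 0.302).

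Both genes of ISG15 conjugation rose with 10 libraries and neither with 13, against 22.3% and 23.6% of all tested genes. Isg15, the ubiquitin-like modifier itself, had 11.2 to 17.7 CPM in knock-in 1, 2, 3 and 7 and 8.57 to 12.9 CPM in wild type, with a log2 fold change of 0.47 (edgeR adjusted p = 0.0142) that was not called without knock-in 1 (adjusted p = 0.0702). Usp18, the protease that removes ISG15 and restrains the type I receptor, had 6.38 to 7.34 CPM in knock-in 1, 2, 3 and 7 and 3.36 to 5.61 CPM in wild type, with a log2 fold change of 0.57 (edgeR adjusted p = 0.00912).

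Genes grouped here as acting on viral entry, budding or replication at membranes included the most abundant of the 36. Ifitm3, which blocks fusion of virus with endosomes, had 179.99, 149.4, 162.8 and 194.1 CPM in knock-in 1, 2, 3 and 7 and 116.5, 112.8 and 95.6 CPM in knock-in 4, 5 and 6, against 107.3, 118.9 and 137.7 CPM as the lowest, median and highest in wild type. Knock-in 1, 2, 3 and 7 were all above wild type and knock-in 6 was below it. Ifitm3 rose with 10 libraries (0.51 ± 0.10 SE, edgeR adjusted p = 0.00106) and was not called with 13 (0.26 ± 0.16, adjusted p = 0.183). Bst2, which encodes tetherin, the protein that holds budding virus to the cell, had 50.4, 36.7, 37.8 and 52.6 CPM in knock-in 1, 2, 3 and 7 and 25.7, 24.1 and 20.4 CPM in knock-in 4, 5 and 6, against 27.5, 30.2 and 36.5 CPM as the lowest, median and highest in wild type. The first 4 were above every wild-type library and the other 3 below every one. Bst2 rose with 10 libraries (0.52 ± 0.12 SE, edgeR adjusted p = 0.00262) and was not called with 13 (0.19 ± 0.21, adjusted p = 0.457). Rsad2, which encodes viperin, rose with 10 libraries (0.38, edgeR adjusted p = 0.0165) and was not called with 13 (0.13, adjusted p = 0.55). It had 33.9 to 36.97 CPM in knock-in 1, 2, 3 and 7 and 22.8 to 36.2 CPM in wild type. Its neighbour Cmpk2, a mitochondrial nucleotide kinase, was not called in either set under TMM (-0.08 with 13 libraries and 0.19 with 10, edgeR adjusted p = 0.736 and 0.276).

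None of the 6 GTPases that act on pathogen vacuoles was called higher under TMM, against 23.6% of all tested genes with 13 libraries and 22.3% with 10. Iigp1, an effector GTPase of this family, was the only listed gene that fell. It had 115.6, 91.2, 97.5 and 109.6 CPM in knock-in 1, 2, 3 and 7 and 49.98, 41.9 and 51.3 CPM in knock-in 4, 5 and 6, against 101.4, 165.7 and 229.4 CPM as the lowest, median and highest in wild type. Knock-in 1 and 7 were above the lowest wild-type library, so the groups overlapped, and knock-in 4, 5 and 6 were the lowest of all. Its log2 fold change was -1.10 ± 0.27 (SE) with 13 libraries and -0.72 ± 0.20 with 10 (edgeR adjusted p = 0.00525 and 0.0103). With library totals it fell by 0.83 and 0.45 on the log2 scale (edgeR adjusted p = 0.0158 and 0.0453).

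The other GTPases of this kind, Igtp and the regulator Irgm1, were not called under TMM. Igtp had a log2 fold change of -0.36 with 13 libraries and 0.02 with 10 (edgeR adjusted p = 0.24 and 0.947), and Irgm1 had -0.22 and 0.08 (adjusted p = 0.338 and 0.519). The guanylate-binding proteins, which coat the same vacuoles, were also not called: Gbp2 had 0.21 and 0.14, Gbp3 had -0.19 and 0.10, and Gbp7 had -0.15 and 0.14 with 13 and 10 libraries, at edgeR adjusted p-values of 0.243 to 0.655. Gbp2 under library totals was called higher in both sets (0.46 and 0.39, edgeR adjusted p = 0.0199 and 0.0407), and Irgm1 with 10 libraries only (0.33, adjusted p = 0.0313). Igtp shares exon sequence with Irgm2 on the same strand and had read numbers that were not whole in all 13 libraries, and those of Gbp3 and Gbp7 were not whole in 8 and 7, so these values are uncertain.

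Of the other 6 genes, 3 rose with 10 libraries and none with 13, against 22.3% and 23.6% of all tested genes. Ifi44 had 18.0, 9.02, 13.4 and 16.9 CPM in knock-in 1, 2, 3 and 7 and 8.04, 8.30 and 7.07 CPM in knock-in 4, 5 and 6, against 5.74, 9.03 and 10.04 CPM as the lowest, median and highest in wild type. Knock-in 2 sat at the wild-type median and the other 3 of that group above the wild-type range. Ifi44 rose with 10 libraries (0.77 ± 0.19 SE, edgeR adjusted p = 0.0056) and was not called with 13 (0.46 ± 0.24, adjusted p = 0.133). Trim30a, a ring-finger protein that dampens Toll-like receptor signalling in mice, rose with 10 libraries (0.56, edgeR adjusted p = 0.00115), but its read numbers were not whole in any library. Parp14, an ADP-ribosyltransferase, was just past the threshold with 10 libraries (0.33, edgeR adjusted p = 0.0429). That call was lost without wild type 3, 4, 5 or 6 or knock-in 1, 3 or 7 (adjusted p = 0.0831, 0.0638, 0.0837, 0.0848, 0.168, 0.0642 and 0.139 in that order).

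Ifi27, a small hydrophobic protein, had 48.9, 62.4, 44.2 and 63.0 CPM in knock-in 1, 2, 3 and 7 and 31.7, 30.9 and 27.3 CPM in knock-in 4, 5 and 6, against 31.0, 41.0 and 54.9 CPM as the lowest, median and highest in wild type. The groups overlapped, and Ifi27 was not called under TMM (0.05 ± 0.21 SE, adjusted p = 0.861 with 13 libraries and 0.36 ± 0.15, adjusted p = 0.0672 with 10, edgeR). With library totals over 10 libraries it was called higher (0.61, edgeR adjusted p = 0.00503). Ifi35 and Xaf1 had log2 fold changes of -0.01 and -0.19 with 13 libraries and of 0.21 and 0.12 with 10, at edgeR adjusted p-values of 0.963, 0.459, 0.0635 and 0.51 in that order.

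The 2 sets differ in knock-in 4, 5 and 6, which were low for most of these genes. Among the 36 genes, 28 had all 3 of these libraries below all of knock-in 1, 2, 3 and 7, against 28.7% of all tested genes, and 1 had them all above, against 22% of all genes. All 3 lay below every wild-type library for 13 of the 36 genes, against 27.3% of all genes: Ifit1, Gbp3, Gbp7, Iigp1, Igtp, Irgm1, Isg15, Bst2, Cmpk2, Ifi35, Xaf1, Trim30a and Parp14. They lay above every wild-type library for 2, Oas3 and Mx1, against 26.4% of all genes.

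Each library was also summarised by the median, over the 36 genes, of its log2 difference from the wild-type mean, computed on CPM plus 0.5. It was 0.58, 0.28, 0.35 and 0.57 in knock-in 1, 2, 3 and 7 and -0.04, -0.22 and -0.23 in knock-in 4, 5 and 6, against -0.12 to 0.23 in wild type. Knock-in 1 was the highest of the 7 knock-in libraries for 18 of the 36 genes, and wild type 1 was the highest of the 6 wild-type libraries for 18. Knock-in 1, 2, 3 and 7 exceeded every wild-type library for 30, 18, 21 and 25 of the genes, and knock-in 4, 5 and 6 for 5, 3 and 5. Neither these counts nor the medians were computed over all genes, so how unusual they are is not known. Of all genes tested with 10 libraries, 14.8% had knock-in 1, 2, 3 and 7 all above wild type.

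**Figure D4:**
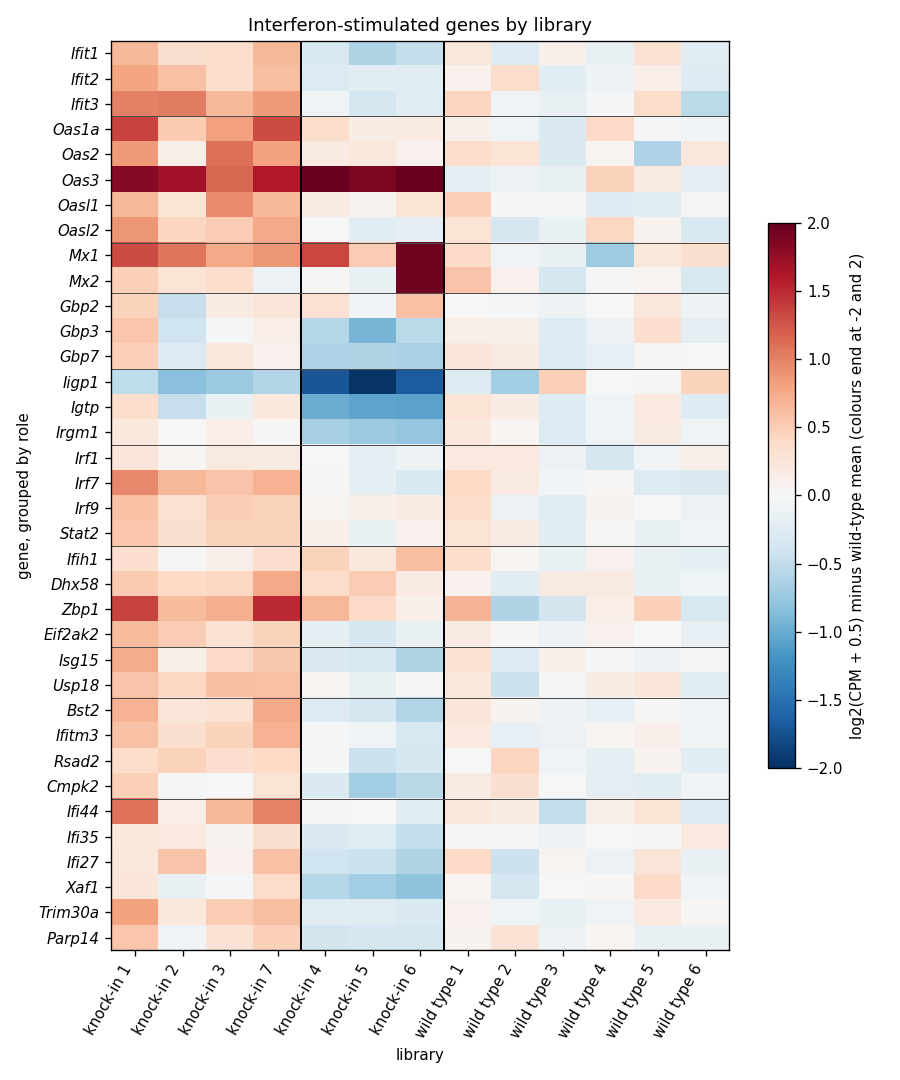
Log2 difference of each interferon-stimulated gene from its wild-type mean in each library, on CPM plus 0.5, with knock-in libraries left of wild-type libraries, red for higher and blue for lower values, and colours that end at -2 and 2. Most genes were above 0 in knock-in 1, 2, 3 and 7, while the medians of knock-in 4, 5 and 6 were -0.04, -0.22 and -0.23, and Oas3, Mx1 and Iigp1 departed from the rest.

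In TPM, a level that allows for gene length, Ifitm3 was the highest of the 36 genes, at 465 ± 113 TPM (SD, n = 7) in knock-in and 291 ± 40.0 TPM (SD, n = 6) in wild type. In wild type the next genes were Iigp1, Ifi27 and Bst2. Iigp1 had 40.8 ± 15.3 TPM in knock-in and 63.1 ± 15.0 TPM in wild type, Ifi27 had 79.3 ± 25.05 TPM in knock-in and 57.2 ± 11.7 TPM in wild type, and Bst2 had 80.9 ± 27.9 TPM in knock-in and 52.7 ± 9.99 TPM in wild type (SD, n = 7 and 6). The wild-type means of these 3 genes were within their SDs of each other, whereas Ifitm3 was clear of them. Oas3 was the lowest, at 0.76 TPM in knock-in and 0.069 TPM in wild type. The 36 genes summed to 1052 to 1452 TPM in knock-in 1, 2, 3 and 7 and 794 to 863 TPM in knock-in 4, 5 and 6, against 647 to 872 TPM in wild type. TPM do not carry the TMM scaling. In TMM-scaled CPM, knock-in 1, 2, 3 and 7 summed to 1023 to 1309 and overlapped wild type, at 919 to 1064. Knock-in 4, 5 and 6 summed to 702 to 773 CPM, below every wild-type library.

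Other genes of the pathway, chosen by name, were counted in the same test. Of 137 further genes, 113 were tested, of which 33 (29.2%) were called higher and 9 lower using 13 libraries, and 62 (54.9%) higher and 8 lower using 10. Of all tested genes, 23.6% were called higher with 13 libraries and 22.3% with 10. Of 22 genes that lead to interferon production, 11 were called higher and 1 lower using 13 libraries, and 15 higher and 1 lower using 10. Irf8 and Irf5, transcription factors of myeloid cells, rose in both sets (log2 fold changes 1.03 and 0.79 with 13 libraries, edgeR adjusted p = 0.000178 and 0.0015). Sting1, the adaptor for cytosolic DNA sensing, also rose (0.62, edgeR adjusted p = 0.00184), with 11.6 to 19.6 CPM in knock-in and 8.83 to 10.7 CPM in wild type.

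Of 75 tested genes on a list of other interferon-induced genes, 16 were called higher and 5 lower using 13 libraries, and 42 higher and 3 lower using 10, beside the same 23.6% and 22.3% of all tested genes called higher. Lgals3bp, a secreted glycoprotein, rose with 38.3 to 74.8 CPM in knock-in and 27.2 to 33.0 CPM in wild type (0.86 with 13 libraries, edgeR adjusted p = 0.000427). Cxcl9, a chemokine that interferon gamma induces, fell, with 5.03 to 11.8 CPM in knock-in and 14.2 to 20.3 CPM in wild type (log2 fold change -1.11 with 13 libraries and -0.88 with 10, edgeR adjusted p = 0.000607 and 0.00112). Ifit1bl1, a relative of Ifit1, also fell (-1.17 and -0.82, edgeR adjusted p = 0.0019 and 0.00241), with 3.11 to 7.93 CPM in knock-in and 7.97 to 17.0 CPM in wild type.

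Markers of several cell types also differed between these libraries. The 10 macrophage markers summed to 1288 to 2269 CPM in knock-in 1, 2, 3 and 7 and 962 to 1096 CPM in knock-in 4, 5 and 6, against 759 to 1120.4 CPM in wild type, and none was at 0 in any library. Of the 10, 7 rose with 13 libraries and all 10 with 10, against 23.6% and 22.3% of all tested genes. The 7 endothelial markers summed to 1272 to 1478 CPM in knock-in 1, 2, 3 and 7, 791 to 892 CPM in knock-in 4, 5 and 6 and 1151 to 1487 CPM in wild type, and none was at 0. With 13 libraries 1 of these 7 fell, and with 10 libraries 2 rose. The 7 fibroblast markers summed to 6171 to 7907 CPM in knock-in 1, 2, 3 and 7 and 5284 to 8311 CPM in knock-in 4, 5 and 6, against 4164 to 5802 CPM in wild type, and 2 rose with 13 libraries and 5 with 10. Dendritic cell markers summed to 18.7 to 23.99 CPM in knock-in 1, 2, 3 and 7 and 17.5 to 18.5 CPM in knock-in 4, 5 and 6, against 11.3 to 16.7 CPM in wild type. The 5 monocyte markers summed to 51.1 to 102.5 CPM in knock-in 1, 2, 3 and 7 and 35.2 to 50.4 CPM in knock-in 4, 5 and 6, against 28.1 to 40.3 CPM in wild type. The 9 T and NK cell markers summed to 5.77 to 7.96 CPM in knock-in 1, 2, 3 and 7 and 7.35 to 8.86 CPM in knock-in 4, 5 and 6, against 1.77 to 5.998 CPM in wild type. Of the 6 plasmacytoid dendritic cell markers, which include the listed gene Bst2, 5 were tested, with 1 higher and 1 lower call with 13 libraries and 2 higher and 1 lower with 10. Their sum was 1199 to 1562 CPM in knock-in 1, 2, 3 and 7 and 876 to 1090 CPM in knock-in 4, 5 and 6, against 2069 to 4231 CPM in wild type, and 1 of the 6 was at 0 in 1 knock-in and 4 wild-type libraries. Bst2 and Irf8 of this list, the 2 that rose with 10 libraries, had at most 52.6 and 26.7 CPM in any library. The sum thus came mostly from its other markers and does not measure the level of these cells. Of the 8 cardiomyocyte markers, 7 fell with 13 libraries and 6 with 10, against 21% and 21.3% of all tested genes, and Nppa, a natriuretic peptide gene, rose in both sets (2.48 and 2.88, edgeR adjusted p = 0.00344 and 0.00636). The part of these cell types in the result was not tested.

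**Figure D5:**
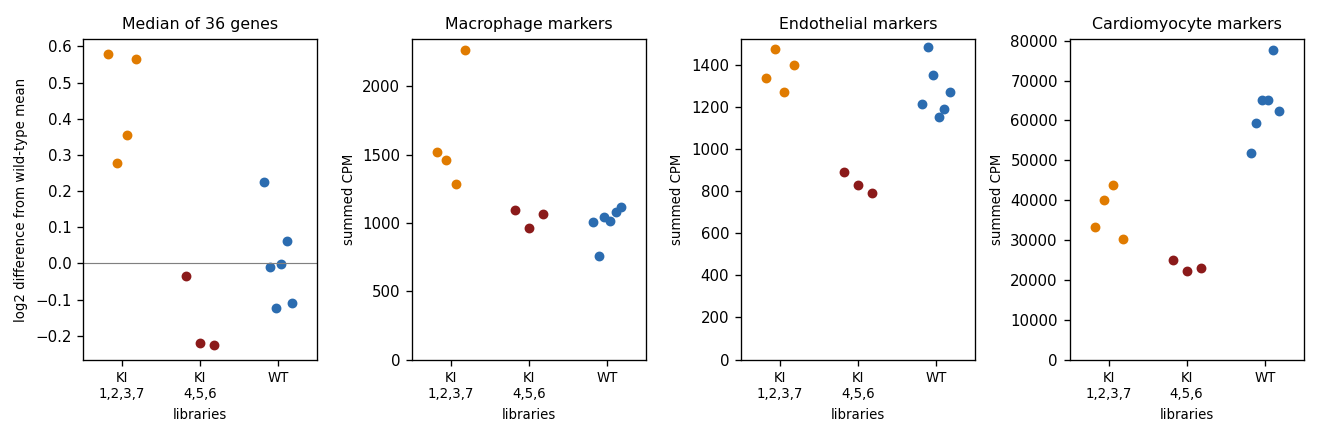
Median log2 difference of the 36 interferon-stimulated genes from the wild-type mean, and summed CPM of macrophage, endothelial and cardiomyocyte markers. Each point is a library, with knock-in 1, 2, 3 and 7 on the left, knock-in 4, 5 and 6 in the middle and wild type on the right. The macrophage sum was highest in knock-in 7, at 2269 CPM, and the endothelial sum was 791 to 892 CPM in knock-in 4, 5 and 6 against 1151 to 1487 CPM in wild type.

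Of the 17 genes whose promoter window held the response element core, 11 rose with 10 libraries, and of the 10 whose window did not, 6 rose. Of all tested genes, 22.3% rose in that set. The 11 include Oas3, which passed the filter on low values only through knock-in. The windows printed above include genes that rose in both sets (Oas3 and Oas1a), genes that rose with 10 libraries only (Ifit1, Ifit3, Isg15, Bst2 and Stat2) and genes not called under TMM in either (Igtp, Irgm1 and Gbp7). Read numbers were whole in every library for 24 of the 36 genes and not whole in at least 1 library for 12. The share of the 36 read numbers that were not whole was 13.9% to 27.8% in knock-in 4, 5 and 6 and 13.9% to 22.2% in the other 10 libraries.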

How the data were processed

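Total RNA of right ventricles was extracted with TRIzol, enriched for polyadenylated RNA and made into stranded Illumina libraries, per the labels' protocols. DRAGEN and the build GRCm39 (mm39) are named in the submitters' processing notes. The annotation and strand setting behind the counts were not given in the sources used here. The authors deposited 1 table per library, holding estimated counts that may be fractional, TPM and gene lengths, per the file headers. Titles in the labels gave the group and replicate number.

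Estimated counts were rounded, filtered with filterByExpr, scaled by TMM and compared with edgeR 4.0.16 in R 4.3.3 by its robust quasi-likelihood test, without covariates. Benjamini-Hochberg adjustment covered every tested gene, and calls have an adjusted p under 0.05. CPM are reads per TMM-scaled library total. SE values are absolute log2 fold changes over the root of the F statistic. A library was set apart by its share of fractional read numbers (tolerance 1e-09). No 2 libraries of a group were alike within sampling noise (closest, wild type 3 and 6, chi-square 7.34 per degree of freedom). The pipeline was tested on simulated data.

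The 36 genes, the lists and the tests were chosen with earlier results of these data known. Values in every library are given for genes called with 13 and with 10 libraries, the 4 with the highest TPM in wild type, the transcription factors, and the 8 with the smallest p among those whose call differed between sets or scalings. Of the pathway lists, the Ifnar and Ifngr genes, detected ligands and 3 called genes per list by smallest p are named, and 1 gene that this rule names is not reported here. Promoter windows come from RefSeq (build GRCm38.p6) and exon overlaps from a GENCODE annotation of that older build. Alternatives were library totals, DESeq2 (1.42.0) and its size factors, limma-voom with quality weights and limma on log2(TPM + 1) and log2(TPM + 0.1) (limma 3.58.1), other filters, Xist as a covariate, an indicator for knock-in 4, 5 and 6, a replicate block and leaving out each library.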

Additional observations from a re-analysis of the deposited data

Results flagged for a closer look

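A single library far from the rest of its group was found in 3 of the 72 gene and group combinations tested by Dixon's criterion, which chance alone would flag in about 1 of 20. Mx2 was highest in knock-in 6, at 12.33 CPM, with the next knock-in library at 4.17 CPM and the lowest at 2.55 CPM. Its read number in knock-in 6 was not whole, so that value is uncertain. Oasl1 was highest in wild type 1, at 2.543 CPM, with the next wild-type library at 1.74 CPM and the lowest at 1.33 CPM. Gbp2 was highest in wild type 5, at 50.85 CPM, with the next wild-type library at 43.8 CPM and the lowest at 40.2 CPM.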

How the results depend on the processing

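Oas3, Mx1 and Zbp1 were called higher in every alternative other than leaving out a library. In the main test Oas3 passed the filter on low values only through knock-in. The number of the 36 genes called higher depended on the libraries and the scaling. With all 13 libraries, against 5 with TMM, it was 20 with library totals, 8 with DESeq2 and 24 with limma-voom quality weights. It was 26 on log2(TPM + 1) and 28 on log2(TPM + 0.1). Of all genes, 23.6% were called higher with TMM, and 41.9%, 26.6%, 27%, 52.5% and 53.7% in these alternatives in that order. An indicator for knock-in 4, 5 and 6 gave 23, where 18.7% of all genes were called higher. The 10 libraries gave 23 with TMM, 31 with library totals and 23 with DESeq2, beside 22.3%, 41.7% and 22.4% of all genes. Leaving out each library in turn gave 4 to 8 genes from the 13 libraries and 21 to 25 from the 10, and it was 8 of the 36 without wild type 1, knock-in 2 or knock-in 5. The median log2 fold change was 0.65 on log2(TPM + 0.1) and 0.72 with library totals over 10 libraries. Directions turned, from values that were not called, to 0.37 on log2(TPM + 1) and 0.38 on log2(TPM + 0.1) for Ifi35, and with library totals over 10 libraries to 0.46 for Ifi35, 0.33 for Irgm1, 0.43 for Cmpk2 and 0.38 for Xaf1. Ifi35 ran from -0.071 to 0.25 over the runs that left out each library of either set. The cause was not tested.

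The replicate numbers did not pair the libraries (correlations of same-numbered libraries -0.11 to 0.08). With a replicate block 3 genes were called higher with 13 libraries and 11 with 10, where 15.6% and 9.54% of all genes were, and 0 lower with 10 (edgeR; Iigp1 at adjusted p = 0.133, 1 gene at an unadjusted p under 0.05, and 1 with DESeq2 over 10 libraries without the block). Of the genes called in both sets, the block also ended the calls of Dhx58 (adjusted p = 0.0675 with 13 and 0.151 with 10) and, with 13, Oas1a (0.0638). The ligands, at 7 or fewer reads in all per group, could not be compared at this depth.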
